A study of Rattus norvegicus with 24 samples.

Results

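Expression of 10 genes that make, load, take up or break down GABA and glutamate was measured in hypothalamic blocks of rats, on 20 of the 31042 probe sets that carry no array control. A probe set was taken as a member when the platform's probe table gave it 1 of the symbols Gad1, Gad2, Slc32a1, Abat, Slc17a6, Slc17a7, Slc1a1, Slc1a2, Slc1a3 or Glul, whatever its signal. All 10 genes had at least 1 probe set, out of 14217 genes with a probe set of their own. The animals were 18 male rats of the outbred Wistar strain, 7 weeks old, with 1 array per rat. Of these, 6 rats were restrained for 2 h in wire mesh while 20 µL of (R,S)-linalool, a fragrant monoterpene alcohol of lavender oil, evaporated inside a 40 L box (linalool rats). Another 6 were restrained for 2 h without the odour (stress rats), and 6 were not restrained (controls). The labels name no genetic change or drug in any group. The design gives 2 comparisons, linalool under stress against stress alone and stress against control. The same 6 stress rats enter both, in values that the authors normalized once with the linalool arrays and once with the control arrays, so linalool rats were never set against controls.

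GABA is the main inhibitory transmitter of the brain and glutamate the main excitatory one, and most neurons of the hypothalamus release one or the other. GABA neurons make GABA from glutamate with the decarboxylases encoded by Gad1 and Gad2 and load it into vesicles with the transporter encoded by Slc32a1, while glutamate neurons load their vesicles with the transporters encoded by Slc17a6 or Slc17a7. Released glutamate is cleared mainly by astrocytes through the transporters of Slc1a2 and Slc1a3, and there the enzyme encoded by Glul turns it into glutamine, which returns to neurons as the raw material for both transmitters.

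The promoters of the 6 genes on which the results below turn are shown to give the sequence context at their starts. They come from RefSeq on the rat assembly GRCr8, each with 250 bases before the annotated start and 50 from it on, on the plus strand. Capitals mark matches, on either strand, to the motifs searched: the TATA box TATAAA, the GC box GGGCGG, the cAMP response element TGACGTCA, the CCAAT box CCAAT, the E-box CACGTG and the glucocorticoid response element, which is AGAACA and TGTTCT with 3 bases between them. No overlap between motifs was found in the 6 windows. Of the 10 genes, 8 had an entry, and where a gene had several starts the window richest in C and G is given. Gad1 lies at chr3:75777202-75777501, Slc32a1 at chr3:167686995-167687294, Gad2 at chr17:89671468-89671767, Slc17a6 at chr1:110348197-110348496, Slc1a2 at chr3:109459859-109460158 and Glul at chr13:68575816-68576115.
Gad1: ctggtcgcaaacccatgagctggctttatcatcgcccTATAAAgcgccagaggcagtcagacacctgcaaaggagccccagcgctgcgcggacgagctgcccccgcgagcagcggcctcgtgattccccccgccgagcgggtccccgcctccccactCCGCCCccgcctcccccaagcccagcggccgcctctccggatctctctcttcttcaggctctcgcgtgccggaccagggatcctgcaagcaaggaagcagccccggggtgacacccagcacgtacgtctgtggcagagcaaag
Slc32a1: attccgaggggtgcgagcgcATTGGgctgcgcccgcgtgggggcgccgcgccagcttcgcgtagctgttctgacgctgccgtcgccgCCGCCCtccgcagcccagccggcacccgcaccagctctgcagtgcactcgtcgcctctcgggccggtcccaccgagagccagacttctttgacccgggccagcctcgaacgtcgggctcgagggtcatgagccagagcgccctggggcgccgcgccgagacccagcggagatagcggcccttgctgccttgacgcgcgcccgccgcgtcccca
Gad2: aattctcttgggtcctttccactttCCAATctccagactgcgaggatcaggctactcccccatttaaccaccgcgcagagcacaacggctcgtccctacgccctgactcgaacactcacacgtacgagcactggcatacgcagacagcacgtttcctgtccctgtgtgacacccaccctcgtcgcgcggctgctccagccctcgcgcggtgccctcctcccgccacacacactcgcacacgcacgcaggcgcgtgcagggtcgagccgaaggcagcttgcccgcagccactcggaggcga
Slc17a6: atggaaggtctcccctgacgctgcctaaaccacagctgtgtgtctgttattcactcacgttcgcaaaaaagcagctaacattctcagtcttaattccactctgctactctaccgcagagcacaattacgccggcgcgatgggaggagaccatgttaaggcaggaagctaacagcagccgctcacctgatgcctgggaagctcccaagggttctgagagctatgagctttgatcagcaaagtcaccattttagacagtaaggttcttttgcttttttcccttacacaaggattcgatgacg
Slc1a2: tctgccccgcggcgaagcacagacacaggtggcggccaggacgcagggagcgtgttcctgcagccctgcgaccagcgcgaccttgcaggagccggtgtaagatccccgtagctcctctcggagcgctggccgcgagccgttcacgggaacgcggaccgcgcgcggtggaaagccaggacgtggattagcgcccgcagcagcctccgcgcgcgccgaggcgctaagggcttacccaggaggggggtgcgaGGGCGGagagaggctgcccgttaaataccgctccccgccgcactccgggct
Glul: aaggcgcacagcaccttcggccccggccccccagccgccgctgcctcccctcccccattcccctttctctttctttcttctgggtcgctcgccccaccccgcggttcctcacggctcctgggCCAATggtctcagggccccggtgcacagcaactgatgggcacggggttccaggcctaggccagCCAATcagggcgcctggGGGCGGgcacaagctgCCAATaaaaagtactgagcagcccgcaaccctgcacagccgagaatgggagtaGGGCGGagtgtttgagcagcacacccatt

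Glul held 3 CCAAT boxes and 2 GC boxes in its window, more matches than any other of the 6 windows held. Slc32a1 had 1 GC box and 1 CCAAT box, Gad2 1 CCAAT box and Slc1a2 1 GC box. Gad1 had 1 TATA box, at position -213 from the start used for its window, and 1 GC box, at -93. RefSeq's gene table puts the start of Gad1 at chr3:75777260, inside this window and upstream of the start used. Slc17a6 held none of the 6 motifs, and its window had 49% C and G, against 63.7% to 73.7% in the other 5. That contrast rests in part on the choice of the richest window. The Slc1a2 window not shown had 46.3% C and G and none of the motifs. The Glul window not shown had 54.7%, with 1 GC box and 1 CCAAT box. RefSeq's gene table puts the start of Glul in that window, at chr13:68519500, so the count of matches for Glul also rests on the choice. Among all 33469 promoters in the table, 14.2% held the TATA box, 33.1% the GC box, 37.5% the CCAAT box, 1.83% the cAMP response element, 6.42% the E-box and 0.0149% the glucocorticoid response element. A match says only that these letters stand in the window.

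The values are log2 signals as deposited, with column medians between 8.13 and 8.19. Probe sets differed by orders of magnitude in how much the arrays varied: 83.7% of all probe sets in the linalool set and 83.5% in the control set had a residual SD (the SD around the group means) under 0.01. Such probe sets are called compressed, and their differences are given as multiples of the residual SD, with a standard error of 0.577 residual SDs. Compressed were 6 of the 20 probe sets in the linalool comparison and 8 in the stress comparison. The compression was not a fixed property of a probe set: over the same 6 stress rats the SD was 888 and 927 times as large in the linalool set as in the control set for the 2 probe sets of Slc1a2, 387 times for Slc1a1 1387932_at, and 0.00134 times for Slc1a3 1368565_at. For the other 16 probe sets this ratio was between 0.688 and 2.27. Folds are therefore those of the deposited scale.

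The labelled tissue was checked against hypothalamic peptide and transcription factor genes. Pmch averaged 12.48 in linalool and 12.32 in stress rats, Avp 11.75 in linalool and 11.37 in stress rats, and Oxt 10.92 in linalool and 10.63 in stress rats, well above the column medians. Pomc (7.41 in both), Otp (6.88 in both) and Sim1 (6.80 in both) lay below the medians, and no detection calls were used that could show whether they were present. Among the array controls, 15 of 27 bacterial poly-A probe sets, which are added to the RNA before labelling, were higher in linalool rats and 0 were lower. Their summed score (the mean of values in residual SDs) ran from 0.217 to 1.57 in linalool rats, against -1.6 to 0.201 in stress rats. Of 18 hybridization controls 0 were higher and 4 lower, and of 12 other controls 2 were higher and 6 lower. The linalool treatment and the handling of the RNA thus cannot be told apart.

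Under linalool, the glutamine synthetase gene Glul rose and the astrocytic glutamate transporter gene Slc1a2 fell, with no overlap between the 6 linalool and the 6 stress rats. Of Slc1a1, a neuronal glutamate transporter gene, 1 of 2 probe sets fell, and of Gad1 1 of 2 rose. The vesicular transporter genes, Gad2, Slc1a3 and Abat did not pass the test. In limma, 7 of the 20 probe sets were past the adjusted threshold of 0.05, with 4 of them higher and 3 lower, against 25.0% of all probe sets, which is the background of this comparison (14.2% higher and 10.8% lower). Groups did not overlap for 6 of the 20 probe sets (30%), against 11.9% of all, and 9 had an unadjusted p under 0.05, against 37.7% of all. The median difference of the 20 was 0.2 residual SDs and that of all probe sets -0.0136, and the median size was 0.758 and 0.932 residual SDs.

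**Figure D1:**
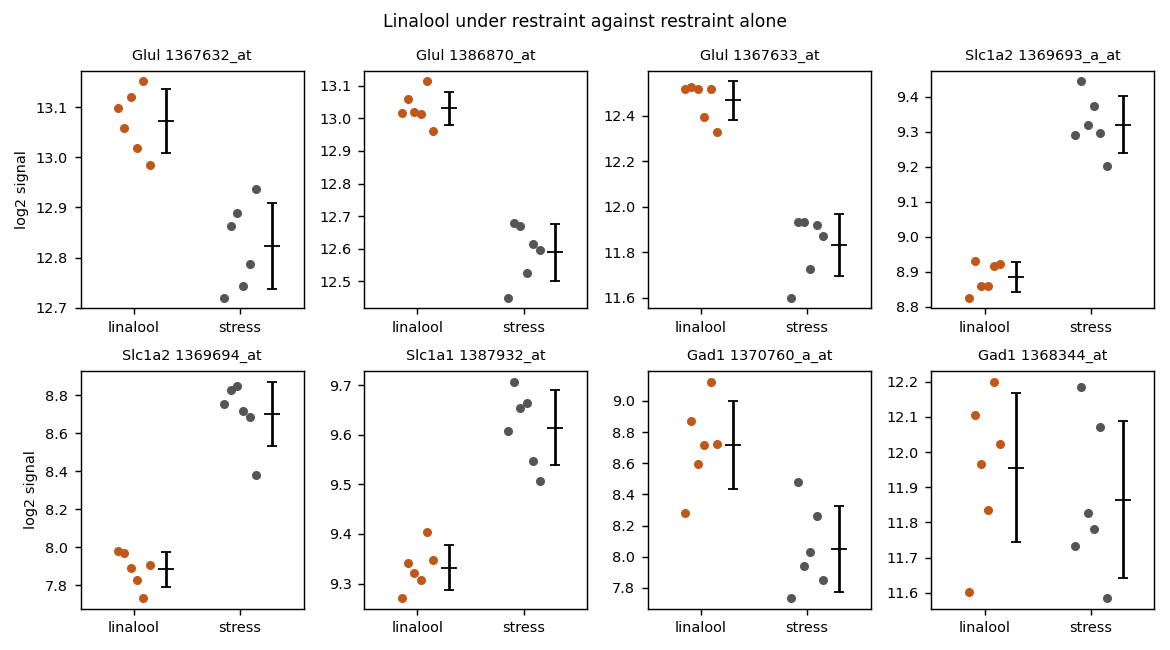
Log2 signal (y axis) of the 7 probe sets past the test and of Gad1 1368344_at in the 6 linalool rats (orange, left) and the 6 stress rats (grey, right) of each panel; points are rats and the bar is the mean ± SD. The groups are apart for the 3 Glul, both Slc1a2 and the Slc1a1 probe sets, and overlap for both Gad1 probe sets.

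**Figure D2:**
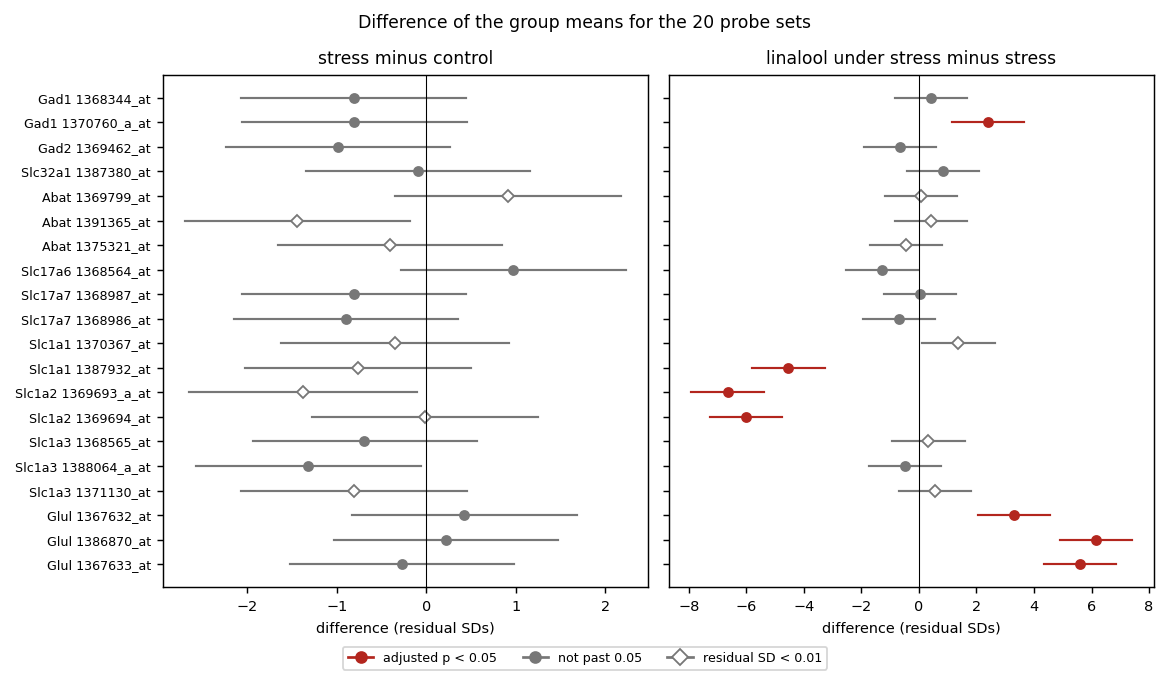
Difference of the group means in residual SDs (x axis) for the 20 probe sets, stress minus control on the left and linalool minus stress on the right, with 95% confidence intervals as lines. Red marks the 7 probe sets past the test, all on the right, and open diamonds mark compressed probe sets.

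Glul, whose enzyme makes glutamine from glutamate and ammonia, was higher in linalool rats on all 3 of its probe sets. On 1367633_at the linalool rats had a lowest, median and highest signal of 12.33, 12.52 and 12.53, and the stress rats 11.60, 11.90 and 11.93. The difference was 0.64 (SE 0.0646, 95% interval 0.495 to 0.781, 1.56-fold), with an adjusted p of 0.000188 in limma. Every linalool rat lay above every stress rat. Probe set 1386870_at gave 12.96, 13.02 and 13.11 in linalool rats, against 12.45, 12.61 and 12.68 in stress rats, a difference of 0.44 (SE 0.0407, 1.36-fold, adjusted p = 0.000122 in limma). On 1367632_at the signals were 12.99, 13.08 and 13.15 in linalool rats, against 12.72, 12.83 and 12.94 in stress rats, and the difference was 0.25 (SE 0.0427, 1.19-fold, adjusted p = 0.00248 in limma). Here too the groups did not overlap. With the poly-A control score as a covariate, the difference on 1367632_at was 2.6 residual SDs (adjusted p = 0.229 in limma) and that on 1367633_at 4.67 (adjusted p = 0.0606), and only 1386870_at kept its call among the 3. With the neuron marker score and the thalamus marker score as covariates, 1367632_at gave 2.7 (adjusted p = 0.121) and 2.86 residual SDs (adjusted p = 0.0503). With the poly-A, neuron and thalamus scores 382, 2270 and 2973 of all probe sets passed, against 7763 without. Scores that differ between the groups take up part of their difference.

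Slc1a2 encodes GLT-1, the transporter that clears most synaptic glutamate in the forebrain. On 1369694_at the signals were 7.73, 7.90 and 7.98 in linalool rats (lowest, median and highest), against 8.38, 8.74 and 8.85 in stress rats. The difference was -0.82 (SE 0.0771, 95% interval -0.988 to -0.646, 0.568-fold), with an adjusted p of 0.000138 in limma. All 6 linalool rats lay below all 6 stress rats, and stress rat 6 was the lowest of its group. Over the same 6 stress rats this probe set averaged 8.70 in the linalool set and 8.50 in the control set, where it was compressed. The values of the 2 sets correlated at 0.707, against 0.962 or more for every other member probe set. On 1369693_a_at the linalool rats gave 8.83, 8.89 and 8.93 and the stress rats 9.20, 9.31 and 9.44, again apart. That difference was -0.43 (SE 0.037, 0.74-fold, adjusted p = 9.74e-05 in limma), and both probe sets passed the test under every alternative run. In bulk tissue, fewer cells of a type and less RNA per cell cannot be told apart. Of 17 astrocyte marker probe sets without the members, 3 were higher and 2 lower (29.4%, against 25.0% of all probe sets). The astrocyte score ran from -0.386 to 1.24 in linalool rats, against -0.704 to -0.0853 in stress rats. The part of this score in the changes of Slc1a2 and Glul was not tested beyond its use as a covariate. With it the 5 probe sets of both genes passed, and 4194 of all probe sets did, against 7763 without. A marker score that differs between the groups cannot settle that part.

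Slc1a3, which encodes the other main astrocytic glutamate transporter, GLAST, did not pass the test on any of its 3 probe sets. On 1388064_a_at the linalool rats had 10.94, 11.14 and 11.44 and the stress rats 10.97, 11.27 and 11.37, so the ranges overlapped almost wholly. The difference was -0.08 (SE 0.0935, 95% interval -0.286 to 0.128, adjusted p = 0.578 in limma). The compressed probe sets 1368565_at and 1371130_at were apart by 0.325 and 0.566 residual SDs (adjusted p = 0.721 and 0.506). Slc1a1 encodes EAAC1, a glutamate transporter of neurons. On 1387932_at the linalool rats had 9.27, 9.33 and 9.40, against 9.51, 9.63 and 9.71 in stress rats, with no overlap. The difference was -0.28 (SE 0.0352, 0.822-fold, adjusted p = 0.000488 in limma). The other Slc1a1 probe set, 1370367_at, was compressed and did not pass, with a difference of 1.36 residual SDs in the opposite direction (adjusted p = 0.109), so the probe sets of Slc1a1 disagreed. With both probe sets scaled, averaged and fitted again, the difference was -2.03 residual SDs of that average (adjusted p = 0.0109 in limma).

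Gad1 and Gad2 encode the GABA-making enzymes GAD67 and GAD65. The Gad1 probe set 1370760_a_at had signals of 8.28, 8.72 and 9.12 in linalool rats, against 7.74, 7.99 and 8.48 in stress rats. It rose by 0.67 (SE 0.157, 95% interval 0.318 to 1.02, 1.59-fold, adjusted p = 0.012 in limma), and 5 of 6 linalool rats lay above all stress rats. The other Gad1 probe set, 1368344_at, gave 11.60, 11.99 and 12.20 in linalool rats, against 11.59, 11.80 and 12.18 in stress rats. Its ranges nearly coincided, with a difference of 0.09 (SE 0.123, 95% interval -0.181 to 0.365, adjusted p = 0.629). The call of 1370760_a_at was lost with the thalamus, neuron, astrocyte and poly-A scores as covariates, where its difference was 1.57, 1.9, 2.08 and 1.52 residual SDs (adjusted p = 0.237, 0.249, 0.119 and 0.476). With these scores 2973, 2270, 4194 and 382 of all probe sets passed, against 7763 without. A score that differs between groups takes up part of their difference, so these fits cannot decide whether the rise goes with the scores. With both Gad1 probe sets scaled, averaged and fitted again, the difference was 1.44 residual SDs of that average (adjusted p = 0.0261 in limma). Of 16 neuron marker probe sets, 0 were higher and 4 lower in linalool rats. These were 25%, against 25.0% of all probe sets called in either direction and 10.8% called lower. The neuron score ran from -1.53 to 0.256 in linalool rats, against 0.21 to 1.02 in stress rats.

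Gad2 had signals of 8.83, 9.48 and 9.67 in linalool rats, against 9.21, 9.60 and 10.27 in stress rats, with a wide overlap. Its difference was -0.24 (SE 0.203, 95% interval -0.685 to 0.214, adjusted p = 0.434 in limma). Slc32a1, the vesicular GABA transporter gene, gave 9.92, 10.24 and 10.52 in linalool rats, against 9.80, 9.91 and 10.48 in stress rats. The groups overlapped, and the difference of 0.20 (SE 0.135, 95% interval -0.103 to 0.496) did not pass (adjusted p = 0.321). Abat, the transaminase gene that starts the breakdown of GABA, was compressed on its 3 probe sets. They differed by 0.074, 0.417 and -0.447 residual SDs, with adjusted p of 0.939, 0.634 and 0.607.

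Slc17a6 encodes VGLUT2, the vesicular glutamate transporter typical of the hypothalamus and thalamus. Its signals were 11.60, 11.76 and 11.91 in linalool rats, against 11.62, 12.01 and 12.20 in stress rats. Of the linalool rats, 1 lay below all stress rats, and the difference was -0.23 (SE 0.1, 95% interval -0.451 to -0.0057, adjusted p = 0.124 in limma). With 1 rat left out the difference ran from -2.31 to -1.09 residual SDs. Of these fits only that without stress rat 2 passed (-2.31, adjusted p = 0.0205 in limma). Of 13 thalamus marker probe sets, 0 were higher and 3 lower in linalool rats. These were 23.1%, against 25.0% of all probe sets called in either direction and 10.8% called lower. The thalamus score ran from -1.78 to 0.182 in linalool rats, against -0.868 to 2.1 in stress rats. With that score as a covariate the Slc17a6 difference was 1.11 residual SDs (adjusted p = 0.405 in limma). Slc17a7, which encodes VGLUT1 and is typical of the cortex, varied widely among rats. On 1368987_at it gave 7.70, 8.50 and 10.00 in linalool rats, against 7.73, 8.70 and 9.31 in stress rats, a difference of 0.03 (SE 0.382, 95% interval -0.82 to 0.875, adjusted p = 0.967). On 1368986_at the difference was -0.21 (SE 0.171, adjusted p = 0.406).

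Restraint alone moved none of the 20 probe sets past the test in limma, against 0.554% of all probe sets (172 of 31042, with 0.341% higher), and 3 of 20 had an unadjusted p under 0.05, against 16.0% of all. Their adjusted p ran from 0.256 to 0.994. No probe set was free of overlap between stress rats and controls, against 1.78% of all, and 16 of 20 differences were below 0. Their median was -0.728 residual SDs, that of all probe sets 0.12. This direction depended on the scaling: 9 of 20 differences were below 0 with median centring and also with quantile normalization, and the medians were 0.432 and 0.419. Gad2 had signals of 9.25, 9.60 and 10.20 in stress rats, against 9.60, 9.96 and 10.21 in controls, so that 3 stress rats lay below all controls. Its difference was -0.30 (SE 0.17, 95% interval -0.672 to 0.0803, adjusted p = 0.405 in limma). Gad1 1368344_at gave 11.56, 11.74 and 12.14 in stress rats, against 11.68, 12.01 and 12.16 in controls (difference -0.16, SE 0.113, adjusted p = 0.489). Gad1 1370760_a_at differed by -0.21 (SE 0.145, adjusted p = 0.493), and Slc32a1 by -0.02 (SE 0.127, 95% interval -0.302 to 0.261, adjusted p = 0.951).

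Among the probe sets not compressed in this set, only that of Slc17a6 was higher in stress rats by more than 0.1 on the log2 scale. In residual SDs it was higher by 0.973, and the compressed Abat 1369799_at by 0.918. Slc17a6 had 11.58, 11.99 and 12.14 in stress rats, against 11.32, 11.76 and 12.07 in controls, with 3 stress rats above all controls. The difference was 0.23 (SE 0.134, 95% interval -0.0668 to 0.528, adjusted p = 0.411 in limma). Slc17a7 1368987_at gave 7.90, 8.71 and 9.28 in stress rats, against 8.38, 8.93 and 10.22 in controls, a difference of -0.47 (SE 0.327, adjusted p = 0.49). The Slc17a7 probe set 1368986_at differed by -0.29 (SE 0.184, adjusted p = 0.445), and the controls reached higher than the stress rats on both. The cortex marker score ran from -0.65 to -0.195 in stress rats, against -0.702 to 1.99 in controls. Within groups, Slc17a7 1368987_at and this score gave an r of 0.0853 in the control set and 0.334 in the linalool set, neither past the test (permutation, adjusted p = 0.908 and 0.456). Their rho was 0.147 and 0.587 (permutation, adjusted p = 0.69 and 0.131). Without the 2 rats farthest from the median r was -0.0572 and 0.7, so the value in the linalool set depended on few rats.

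Among the clearance genes, Slc1a3 1388064_a_at had 10.99, 11.20 and 11.29 in stress rats, against 11.08, 11.40 and 11.48 in controls. The difference was -0.17 (SE 0.0726, adjusted p = 0.291 in limma, two-sided exact permutation p = 0.0455 unadjusted). Slc1a3 1368565_at differed by -0.08 (SE 0.0678, adjusted p = 0.56) and 1371130_at, compressed, by -0.811 residual SDs (adjusted p = 0.491). Glul was close in both groups: 1367632_at averaged 12.82 ± 0.0498 in stress rats and 12.79 ± 0.0897 in controls (SD, n = 6 each), a difference of 0.03 with a 95% interval of -0.0601 to 0.122 (adjusted p = 0.735). The intervals of Glul 1386870_at (-0.127 to 0.181) and 1367633_at (-0.192 to 0.124) also held 0. In this set Slc1a2, Slc1a1 and Abat were compressed on all 7 probe sets. Abat 1391365_at had the lowest adjusted p of the 20, 0.256, at -1.44 residual SDs, and Slc1a2 1369693_a_at followed with -1.38 (adjusted p = 0.279), while Slc1a2 1369694_at differed by -0.0113. Slc1a1 differed by -0.348 and -0.765 residual SDs, and the other Abat probe sets by 0.918 and -0.408.

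The neuron score ran from -0.0167 to 0.652 in stress rats, against -0.646 to -0.244 in controls, without overlap, although 0 of its 16 probe sets passed the test. The meningeal score ran from -0.923 to -0.413 in stress rats, against -1.06 to 2.27 in controls, of which rats 5 and 6 had 2.27 and 2.15. The part of these scores in the member values was not tested beyond their use as covariates. With either score 0 of the 20 probe sets passed, as without them, so these fits cannot tell that part. Over all probe sets 0 passed with either score, against 172 without, and the neuron score itself separates the groups.

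Among rats of the same group, the GABA genes varied together. The deviations from the group means of Gad1 1368344_at, Gad2 and Slc32a1 were compared over the 12 arrays of each set, in a family of 18 pairs with permutation p adjusted over them. In the linalool set r was 0.865 for Gad1 and Gad2 (permutation, adjusted p = 0.00366, rho 0.853), 0.927 for Gad1 and Slc32a1 (adjusted p = 0.00114, rho 0.895) and 0.866 for Gad2 and Slc32a1 (adjusted p = 0.00366, rho 0.902). Without the 2 rats farthest from the median these were 0.727, 0.892 and 0.728. In the control set the 3 pairs gave 0.9, 0.921 and 0.955, and 0.83, 0.882 and 0.933 without 2 rats (permutation, adjusted p = 0.00225, 0.00114 and 0.00036). The unadjusted permutation p of these 6 values of r ran from 2e-05 to 0.00122. A rat high in 1 of the 3 genes was thus mostly high in the other two. Since the 6 stress rats are in both sets, the sets are not independent.

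Slc17a6 ran against Gad1. The r was -0.811 in the control set (permutation, adjusted p = 0.00514, rho -0.755) and -0.688 in the linalool set (adjusted p = 0.0422, rho -0.601 with adjusted p = 0.123), or -0.642 and -0.585 without 2 rats (unadjusted permutation p = 0.002 and 0.0188 with all rats). These 8 values passed by Pearson's r and 7 by Spearman's rho, out of 18. The pairs of Slc17a6 with Slc17a7 (0.392 in the control set, 0.428 in the linalool set), Slc1a2 with Slc1a3 (0.306 and 0.117), Slc1a2 with Glul (0.0784 and -0.238), Slc1a3 with Glul (0.479 and 0.368) and Gad1 with Abat (0.328 and 0.502) did not pass in either set.

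**Figure D3:**
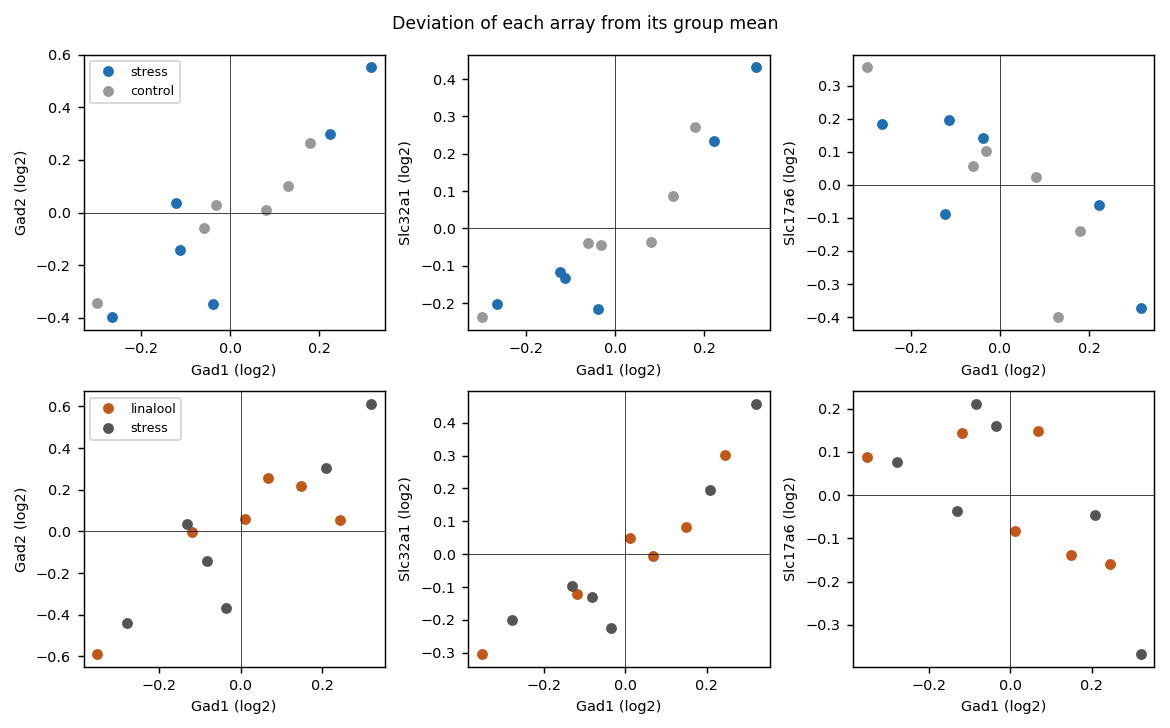
Deviation of each array from its group mean on the log2 scale, Gad1 1368344_at on the x axis and Gad2, Slc32a1 or Slc17a6 on the y axis; top, stress (blue) and control (light grey), bottom, linalool (orange) and stress (dark grey). Points climb with Gad1 for Gad2 and Slc32a1 and descend for Slc17a6 (r of -0.811 at the top and -0.688 at the bottom).

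Slc17a6, Gad1 and Slc17a7 were set against thalamus, striatum and cortex marker scores in 18 relations chosen after the values were seen, and 7 of them passed, all of Slc17a6 or Gad1 with the thalamus or striatum score. Slc17a6 followed the thalamus marker score, with r of 0.921 in the control set and 0.948 in the linalool set (permutation, adjusted p = 0.00108 and 0.0009), and 0.846 and 0.919 without 2 rats. The unadjusted p of r was 0.00012 and 5e-05 (permutation). Slc17a6 ran against the striatum score with r of -0.836 and -0.763 (adjusted p = 0.0103 and 0.0108). Gad1 followed the striatum score with r of 0.802 and 0.767 (permutation, adjusted p = 0.0015 and 0.0155), and 0.691 and 0.714 without 2 rats. With the thalamus score Gad1 gave -0.77 in the control set (adjusted p = 0.0145) and -0.638 in the linalool set, which did not pass (adjusted p = 0.0852). The cortex score did not pass with Slc17a6 (-0.615 in the control set and -0.0562 in the linalool set, permutation, adjusted p = 0.0952 and 0.908) or Gad1 (0.403 and 0.0146, adjusted p = 0.253 and 0.965). These pooled values joined groups of opposite sign. In the control set, r in stress rats and controls was 0.767 and -0.941 for Slc17a6, and -0.721 and 0.828 for Gad1. In the linalool set, r in linalool and stress rats was -0.582 and 0.705 for Slc17a6, and 0.406 and -0.789 for Gad1. The single groups were not tested. Slc17a7 passed with none of the 3 scores: its r was 0.363 and 0.389 with the thalamus score and -0.481 and -0.304 with the striatum score. The 3 genes whose within-group deviations were most like those of Slc17a6, by the lower r of the 2 sets over 14216 genes, were Adgra1 (0.969 and 0.979), Kitlg (0.94 and 0.969) and Tcf7l2 (0.933 and 0.976), of which Tcf7l2 is itself in the thalamus list. For Gad1 they were Slc32a1 (0.921 and 0.927), Hpca (0.885 and 0.883) and Cplx2 (0.875 and 0.869), with Gad2 at rank 4.

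**Figure D4:**
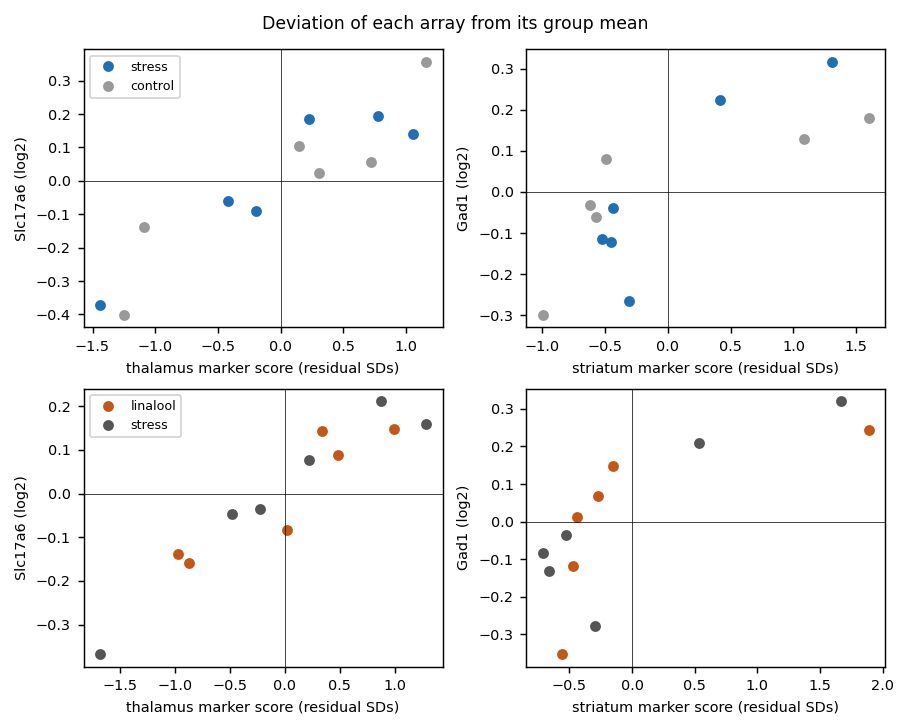
Deviation of each array from its group mean: left, Slc17a6 (log2) against the thalamus marker score, right, Gad1 1368344_at (log2) against the striatum marker score (both scores in residual SDs); top, stress (blue) and control (light grey), bottom, linalool (orange) and stress (dark grey). Slc17a6 climbs with the thalamus score in both sets (r of 0.921 and 0.948), while a few rats with a high striatum score are high in Gad1.

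On the deposited scale, probe sets of 1 gene, and genes of the GABA group, did not change by equal amounts. The log2 difference between 2 probe sets was taken within each array and compared between groups with a two-sided exact permutation test, in 16 comparisons chosen after the values were seen and adjusted over them. The smallest p that 6 against 6 rats allow is 0.00216, and each adjusted p of 0.00693 below comes from it. The change of such a difference between groups was compared, and not its size. The deposited scale can differ between probe sets, as the compressed ones show. Whether unequal changes reflect the scale or the transcripts was not tested. For Gad1, 1370760_a_at minus 1368344_at was -3.24 ± 0.118 in linalool rats and -3.81 ± 0.112 in stress rats (SD, n = 6 each), a change of 0.58 without overlap (exact permutation, adjusted p = 0.00693). On the deposited scale, the rise of Gad1 under linalool was thus a difference between its probe sets as well as between the groups. In the stress comparison the same quantity changed by -0.04 (exact permutation, adjusted p = 0.563). The labels and the probe table used here do not say which part of the Gad1 transcripts each probe set reads.

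For Glul, 1367633_at minus 1367632_at was -0.60 ± 0.0435 in linalool rats and -0.99 ± 0.0923 in stress rats (SD, n = 6 each), a change of 0.39. The value for 1386870_at minus 1367632_at was -0.04 ± 0.0406 in linalool rats and -0.23 ± 0.062 in stress rats, a change of 0.19. Both had an adjusted p of 0.00693 (exact permutation) and no overlap, so the 3 Glul probe sets rose by unequal amounts on the deposited scale. In the stress comparison these values changed by -0.06 (adjusted p = 0.179) and -0.00 (adjusted p = 0.942, exact permutation). For Slc1a2, 1369694_at minus 1369693_a_at lay between -1.18 and -0.84 in linalool rats and between -0.82 and -0.47 in stress rats, a mean change of -0.38 (exact permutation, adjusted p = 0.00693).

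**Figure D5:**
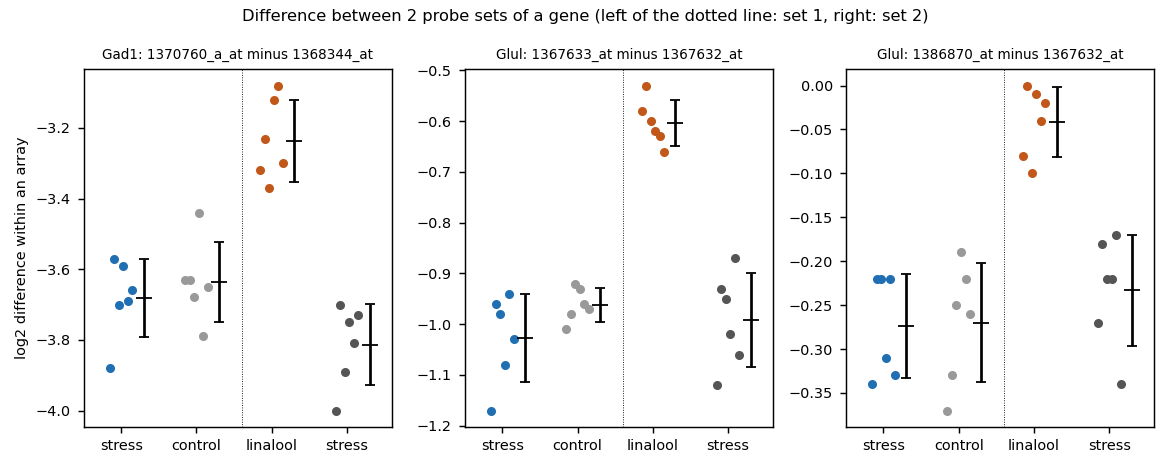
Log2 difference between 2 probe sets of Gad1 or Glul within each array (y axis), for stress (blue) and control (light grey) left of the dotted line and linalool (orange) and stress (dark grey) right of it; points are rats and bars mean ± SD. Linalool rats lie above stress rats in all 3 panels without overlap, while stress rats and controls overlap.

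Slc32a1 and Gad2, which varied together among rats of a group (r of 0.955 and 0.866), were offset from each other between the groups in both comparisons. Slc32a1 minus Gad2 was 0.80 ± 0.22 in linalool rats and 0.37 ± 0.162 in stress rats (SD, n = 6 each), a change of 0.43 with some overlap (exact permutation, adjusted p = 0.0115). In the other set it was 0.36 ± 0.14 in stress rats and 0.09 ± 0.0624 in controls, a change of 0.28 without overlap (exact permutation, adjusted p = 0.00693). Neither gene passed the test on its own in either comparison. Gad2 minus Gad1 1368344_at changed by -0.33 under linalool (exact permutation, adjusted p = 0.0519) and by -0.13 under stress (adjusted p = 0.205). Slc32a1 minus Gad1 1368344_at changed by 0.14 under stress (exact permutation, adjusted p = 0.0495) and by 0.10 under linalool (adjusted p = 0.104). The comparisons share the stress rats.

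Of 20 further genes of the pathway, 16 were measured, on 22 probe sets. Under linalool 3 of the 22 were higher and 2 lower (22.7%, against 25.0% of all probe sets), with a median difference of 0.0337 residual SDs. Slc6a11, which encodes the astrocytic GABA transporter GAT-3, averaged 9.15 in linalool and 9.64 in stress rats, a difference of -0.49 (SE 0.0421, adjusted p = 9.9e-05 in limma) with no overlap. Slc38a2, a transporter of glutamine and other neutral amino acids, averaged 11.32 in linalool and 11.15 in stress rats, a difference of 0.17 (SE 0.0359, adjusted p = 0.00694), also without overlap. The glutamine transporter gene Slc38a3 and the glutamate transporter gene Slc1a6 rose by 2.5 and 2.39 residual SDs (adjusted p = 0.00998 and 0.0128), and Slc38a1, a neuronal glutamine transporter gene, fell by 2.86 residual SDs on 1 of its 3 probe sets (adjusted p = 0.00639). The probe sets of Slc38a3, Slc1a6 and Slc38a1 were compressed, so 3 of the 5 calls rest on very small log2 differences, and how other scalings move them was not computed. Not past the test were Aldh5a1 at -1.66 (adjusted p = 0.0558), Gls2 at 1.56 (adjusted p = 0.0707) and Slc25a22, with a log2 difference of -0.19 (adjusted p = 0.0812). Under stress 0 of the 22 passed, with a median of 0.42 residual SDs. The smallest p values there belonged to Slc6a11 (1.91 residual SDs, adjusted p = 0.169), Slc6a13 (a log2 difference of -0.83, SE 0.326, adjusted p = 0.256) and Glud1 (-1.21 residual SDs, adjusted p = 0.332).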

How the data were processed

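Per the labels' protocols, total RNA of each hypothalamic block was extracted with TRIzol, purified on a Maxwell instrument and, from 500 ng, copied into biotin-labelled cRNA for 3' expression arrays. The authors deposited log2 signals per probe set and, per the series' design text, normalized control with stress arrays and stress with linalool arrays as separate sets. The summarization and normalization methods are not given in the sources used here, and the log2 scale was read from the range of the values.

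Array controls, 57 of the 31099 probe sets, stayed out of the tests of members and lists. Their own calls come from a separate limma fit over all 31099 probe sets, adjusted over the 57 controls. Gene names came from GEO's platform table, and the 10 members' symbols matched RefSeq's GRCr8 gene table by gene identifier. For both comparisons a linear model was run over the other 31042 probe sets, unfiltered and not normalized again (limma 3.58.1 under R 4.3.3, functions lmFit and eBayes, two-sided), with Benjamini-Hochberg adjustment over all of them and a threshold of 0.05. No covariate was used, and both means rest on 6 arrays. Intervals are 95% confidence intervals. The residual SD of 0.01 that marks compressed probe sets was set after the values were seen. Marker and poly-A scores are the mean, over a list's probe sets, of values centred and divided by the residual SD. Correlations used 100000 permutations within groups, and values within arrays used all 924 splits of 12 rats. The number of arrays limits the precision.

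All 20 probe sets of the members are named, and of the related genes up to 8 past the threshold plus the 3 with the smallest p among the others. The members and lists were chosen with earlier results of these data known. Simulated data had 200 of 31042 probe sets moved by 2, 3, 4 or 6 residual SDs, with independent noise between probe sets. With the residual SDs of the linalool set, limma recovered 14.8%, 41.2%, 84.4% and 100% (6.24% of calls false). With those of the control set it recovered 9.6%, 48.4%, 81.2% and 100% (5.68% false). In the real linalool comparison 25.0% of all probe sets were called, many more than were moved here. The simulated shares therefore do not measure the sensitivity of that comparison.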

Additional observations from a re-analysis of the deposited data

Results flagged for a closer look

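In 3 of 80 groups of 6 rats tested, the gap between 1 rat and the nearest other, as a share of the group's range, was larger than Dixon's 95% critical value. Chance marks about 1 in 20 groups. Gad2 was low in linalool rat 1, at 8.83 against 9.41 in the next rat (ratio 0.694). Slc1a2 1369694_at was low in stress rat 6 of the linalool set, at 8.38 against 8.68 in the next rat (ratio 0.65). Slc17a7 1368986_at was low in stress rat 2 of the same set, at 7.84 against 8.25 (ratio 0.635).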

How the results depend on the processing

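Values here are differences in residual SDs unless given as counts. For stress against control, 0 of 20 member probe sets passed under all 27 alternatives, while the count over all probe sets, 172, was 92 with median centring, 77 with quantile normalization, 101 with 1 probe set a gene, 991 with probe sets averaged by gene, 16 with the replicate block, 1 without controls 4 to 6, 0 with the meningeal or the neuron score, 1 with the astrocyte score, and 24 to 205 with 1 rat left out (74, 87, 52 and 48 without control 1, 3, 5 or 6, and 24, 37, 76 and 29 without stress rat 1, 3, 4 or 5). For linalool, the 7 member calls were 14 with median centring, 2 with 1 probe set a gene (10 tested), 4 with the poly-A score and 7 to 8 with 1 rat left out. The 7763 calls over all probe sets were 28990 with median centring (94.9% higher, against 56.7% before), 2608 with quantile normalization, 4229 with 1 probe set a gene (67.4% higher), 2973, 2270, 4194 and 382 with the thalamus, neuron, astrocyte and poly-A scores, and 6383 to 7466 with 1 rat left out. Array medians move by more than the residual SD of compressed probe sets, so centring sets their sign. The thalamus, neuron, astrocyte and poly-A scores were added after seeing the data, and a score that differs between groups takes up part of their difference.

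The replicate numbers were not taken to pair the rats, since not every pair correlated above 0.1: same-numbered rats correlated at -0.105 to 0.182 (linalool) and 0.0755 to 0.223 (stress, all above 0), and 1 and 3 of 6 correlated best with their own number. With the number as a block, 5548 probe sets passed under linalool, the members' 7 included in number, and 16 under stress, where a weak pairing is not excluded by these correlations.

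Slc17a6 under linalool passed with median centring (adjusted p = 0.0488) and with probe sets averaged by gene (adjusted p = 0.0447), as did Gad1 with that average (1.44, adjusted p = 0.0261). No member probe set past the test changed sign. Others did, with adjusted p above 0.05 unless given.
For stress against control, median centring gave Abat 1391365_at 1.09 and 1375321_at 1.11, Slc1a1 1370367_at 1.1 and 1387932_at 1.08, Slc1a2 1369693_a_at 1.09 and 1369694_at 1.11, and Slc1a3 1371130_at 1.09. Quantile normalization gave the same probe sets, in that order, 1.26, 1.24, 0.78, 0.803, 1.08, 1.3 and 0.917. The mean of probe sets gave Abat -0.583. Without controls 4 to 6 the values were 0.371 for Slc32a1, 0.264 for Abat 1375321_at, 0.231 for Slc1a2 1369694_at and 0.583 for Slc1a3 1368565_at, and with the meningeal score 0.241, 0.114, 0.142 and 0.366. The thalamus score gave Slc32a1 0.439 and Slc1a2 1369694_at 0.201, and the poly-A score the same Slc1a2 probe set 0.0134. The neuron score gave Gad1 1368344_at 2.14 and 1370760_a_at 2.32, Gad2 3.32, Slc32a1 5.34, Slc17a6 -1.22, Slc1a1 1387932_at 0.209, Slc1a2 1369693_a_at 0.33 and 1369694_at 3.06, and Glul 1367633_at 0.731. The astrocyte score gave Abat 1375321_at 0.117, Slc1a1 1370367_at 1.7 and 1387932_at 0.507, and Glul 1367632_at -0.354 and 1386870_at -0.336. With 1 rat left out, Slc32a1 ran from -0.608 to 0.158, Slc1a2 1369694_at from -0.454 to 0.373, Glul 1386870_at from -0.0448 to 0.604 and Glul 1367633_at from -0.464 to 0.0926.

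For linalool, median centring gave Abat 1375321_at 1.45 (adjusted p = 0.0358), and quantile normalization gave it 1.37, Slc1a1 1370367_at -0.597 and Slc1a3 1368565_at -0.828. The mean of probe sets gave Slc17a7 -0.329 and Slc1a1 -2.03 (adjusted p = 0.0109), and array weights Slc17a7 1368987_at -0.151. The thalamus score gave Gad1 1368344_at -0.854, Slc32a1 -1.02, Abat 1369799_at -0.368 and 1391365_at -0.296, Slc17a6 1.11 and Slc1a3 1368565_at -0.913. The neuron score gave Slc17a7 1368986_at 0.214 and Slc1a3 1368565_at -1.42 and 1371130_at -0.64, and the astrocyte score gave these 0.531, -1.11 and -0.478. The poly-A score gave Gad1 1368344_at -0.701, Slc32a1 -0.0924, Abat 1369799_at -1.86, 1391365_at -0.0731 and 1375321_at 0.191, and Slc17a7 1368986_at 0.219. With 1 rat left out, Abat 1369799_at ran from -0.283 to 0.378, Abat 1375321_at from -0.794 to 0.0376 and Slc17a7 1368987_at from -0.452 to 0.361. Without 2 rats, the control-set correlations of Gad1 with Abat and of Slc1a3 with Glul were -0.0138 and -0.101. Except where stated, the cause of a change was not tested.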
